A study of Mus musculus with 12 samples.

Results

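The desmosome is the junction that fastens neighbouring keratinocytes to each other, and its mRNAs were followed here in healing mouse skin. The 10 desmosome genes Dsg1a, Dsg2, Dsg3, Dsc1, Dsc2, Dsc3, Jup, Pkp1, Pkp3 and Dsp were chosen by name from the 55487 genes listed in every expression table, and all 10 passed the filter on low values. RNA was sequenced from cutaneous wounds of male C57BL/6JNarl mice that were 6 weeks old, each with 2 full-thickness punch wounds on the back, and the excised tissue held the wound together with skin around it. The sham group received 200 µL of gel alone (25% Pluronic F127, labelled P-F127) each day. The CAP group received the same volume of that gel with 10 µM CAP (capsaicin, the pungent compound of chili peppers). Wounds of both groups lay under a film dressing, and no unwounded skin was among the samples used here. Each treatment was sampled at day 3 and at day 6 after wounding, with 3 libraries in each of the 4 groups. No source used here says whether any libraries came from the same mouse, and the p-values therefore measure the spread between these libraries alone.

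Desmosomes are built from membrane-spanning cadherins, the desmogleins and desmocollins, whose outer parts bind those of the next cell. Inside the cell, their tails bind the armadillo proteins plakoglobin and the plakophilins, which in turn bind desmoplakin, the protein that ties the complex to keratin filaments. In stratified epidermis desmoglein 1 and desmocollin 1 are known to be strongest in the upper, differentiating layers, desmoglein 3 and desmocollin 3 in the lower layers, and desmoglein 2 and desmocollin 2 are known from many epithelia.

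The genes for the inner proteins are scattered over the genome (mouse build GRCm38, GENCODE annotation), with Pkp1 at chr1:135871395-135919207 on the minus strand, Pkp3 at chr7:141078218-141090510 on the plus strand, Dsp at chr13:38151294-38198577 on the plus strand and Jup at chr11:100368958-100397763 on the minus strand. A promoter was found in the RefSeq table for 2 of the 10 genes, Jup and Dsp, which were also the pair with the highest mean levels in these wounds. The 250 bases before each start are shown, as the promoters of the plaque genes with the most abundant mRNA here, with GC boxes (GGGCGG, searched on both strands) in capitals. For Jup the window is chr11:100397791-100398040 (GRCm38.p6, minus strand), and for Dsp it is chr13:38151044-38151293 (plus strand).
Jup: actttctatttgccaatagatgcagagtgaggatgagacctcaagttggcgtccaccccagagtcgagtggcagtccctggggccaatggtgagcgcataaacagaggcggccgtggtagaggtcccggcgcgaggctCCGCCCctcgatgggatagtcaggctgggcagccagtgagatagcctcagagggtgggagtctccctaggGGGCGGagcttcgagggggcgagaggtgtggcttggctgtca
Dsp: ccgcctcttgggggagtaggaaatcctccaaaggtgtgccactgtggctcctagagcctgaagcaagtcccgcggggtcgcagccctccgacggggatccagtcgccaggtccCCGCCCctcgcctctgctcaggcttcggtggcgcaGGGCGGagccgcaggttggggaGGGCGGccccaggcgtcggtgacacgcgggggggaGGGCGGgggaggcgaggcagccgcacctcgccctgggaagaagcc
Guanine and cytosine made up 62.0% of the Jup window and 72.4% of the Dsp window, and the median over 32851 promoter windows of the same length was 52.4%. The Jup window held 2 GC boxes and the Dsp window 4, and a GC box was present in 32.7% of all windows. Neither window held a TATA box (TATAAA, in 12.4% of windows), an AP-1 motif (TGANTCA, in 6.75%), an E-box (CANNTG, in 66.2%) or a GRHL motif (AACCGGTT, in 0.116%). These letter matches are a description and no binding was measured.

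The values are TPM, the abundance of transcripts scaled by their length and to a fixed total per library, so that levels of different genes can be set side by side. Sequencing depth cannot be read from TPM, and counting error is therefore unknown. Between 18533 and 19325 genes reached 0.3 TPM per library. On the scale of log2(TPM + 0.1), libraries of the same group correlated at 0.956 to 0.975 across genes and libraries of different groups at 0.934 to 0.975, so the groups did not separate by this measure. The labelled tissue was checked against its markers: the 7 keratinocyte reference genes (Krt5, Krt14, Cdh1, Trp63, Itgb4, Epcam and Sfn) summed to between 13370 and 30810 TPM in the 12 libraries.

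Jup, which encodes plakoglobin, had the highest level of the desmosome genes, with a mean of 1264 TPM over the 12 libraries and a range of 805 to 1795. Dsp (desmoplakin) followed at 895 TPM and Pkp1 (plakophilin 1) at 828 TPM. Jup exceeded Dsp in 12 of 12 libraries, and Dsp exceeded Pkp1 in 9 of 12. A middle tier held Dsc3 at 424, Dsg1a at 386, Dsc1 at 377 and Pkp3 at 376 TPM. The order within this tier varied, since Dsc3 exceeded Dsg1a in 9 of 12 libraries, Dsg1a exceeded Dsc1 in 5 and Dsc1 exceeded Pkp3 in 6. Dsg3 had a mean of 109 TPM, Dsc2 of 53.0 TPM and Dsg2 of 10.6 TPM, and each of these exceeded the next in 12 of 12 libraries. The 6 cadherin genes are neighbours in the genome, within 644 kb at chr18:19960930-20604521 (GRCm38), a stretch that also holds their relatives Dsg1b, Dsg1c and Dsg4, and their levels in these wounds still ranged from 10.6 TPM to 424 TPM.

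Shares by class were taken from the mRNA of the 10 genes alone. They leave out Dsg1b, at group means of 160 to 263 TPM, which lowers the desmoglein share. Of the summed TPM of the 10 genes, the desmogleins took 9.39 to 11.8%, the desmocollins 16.2 to 19.5%, plakoglobin 24.5 to 28.9%, the plakophilins 24.4 to 26.8% and desmoplakin 16.3 to 21.2% across the 12 libraries. The sum itself was 4144 to 5500 TPM in sham wounds and 3593 to 6008 TPM in CAP-treated wounds at day 3. At day 6 it was 2974 to 4070 TPM in sham wounds and 4239 to 6216 TPM in CAP-treated wounds, and these ranges did not overlap. In bulk tissue, fewer keratinocytes and less of an mRNA per keratinocyte cannot be told apart.

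**Figure D1:**
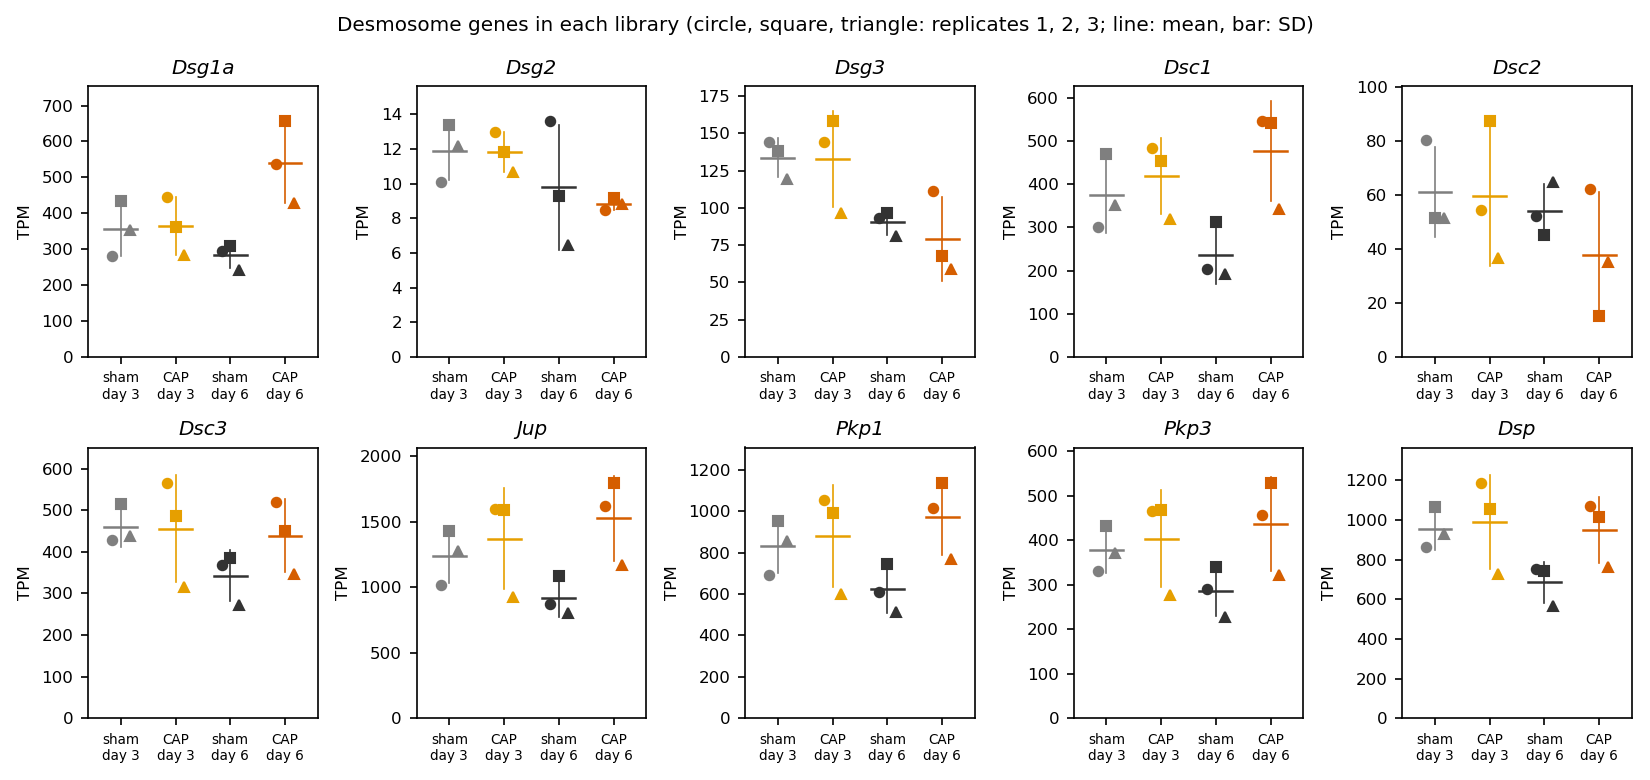
TPM of each of the 10 desmosome genes (y axis from 0, one panel per gene) in sham and CAP-treated wounds at day 3 and day 6, with a symbol per library, a line at the mean and a bar for the SD (n = 3). At day 6 the CAP-treated libraries of Dsg1a lay at 429 to 656 TPM and all 3 exceeded the sham libraries at 243 to 309 TPM, and at day 3 the ranges of all 10 genes overlapped.

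The comparison of CAP with sham at day 6 asks how treated wounds differed later in repair. Levels of the upper-layer cadherins Dsg1a and Dsc1, of Jup, Pkp1, Pkp3 and Dsp were 1.38- to 2.03-fold those of sham wounds, each with an unadjusted p under 0.05, although none passed the adjustment. The lower-layer cadherins lay at 1.28-fold (Dsc3) and 0.848-fold (Dsg3), Dsc2 lay at 0.604-fold, and these and Dsg2 had larger p-values. The limma fit across 18323 genes gave an unadjusted p under 0.05 with a higher level for 6 of the 10 desmosome genes, against 6.67% of all genes tested, and for 0 with a lower level, against 12.5%. Past the threshold of an unadjusted p under 0.05 and at least a 2-fold difference stood 1 gene, Dsc1, against 1.46% of all genes that were higher, and 0 were lower, against 2.34%. None of the 10 had an adjusted p (Benjamini-Hochberg over all genes tested) under 0.05, nor did any of the 18323 genes, of which 3517 had an unadjusted p under 0.05. The median difference of the 10 was 0.53 on the log2 scale and that of all genes was -0.12. Median-ratio scaling set the latter to 0.00 and gave 403 higher and 285 lower genes past the threshold in place of 268 and 429, with 2 of the 10 desmosome genes past it (Dsc1 and Dsg1a) and 6 again higher at an unadjusted p under 0.05.

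Dsc1, the desmocollin of the upper layers, lay at 203, 312 and 192 TPM in the sham libraries and at 546, 541 and 343 TPM in the CAP libraries of day 6. Every CAP library exceeded every sham library, and sham replicate 2 came nearest. The difference was 1.02 ± 0.25 (log2(TPM + 0.1), SE, 2.03-fold) with an unadjusted p of 0.00498 and an adjusted p of 0.206 in limma. It lay just past 2-fold and fell short of it when sham replicate 1 (0.93) or 3 (0.89) was left out, and likewise with CAP replicate 1 or 2 left out (0.91 each).

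Dsg1a, one of the mouse genes for desmoglein 1, lay at 295, 309 and 243 TPM in sham libraries and at 538, 656 and 429 TPM in CAP libraries. The groups were separated by a wide margin. The difference of 0.93 ± 0.18 (SE, 95% interval 0.50 to 1.35, 1.9-fold) had the smallest unadjusted p of the 10 genes, 0.00136, with an adjusted p of 0.205 in limma. It passed 2-fold when libraries were scaled by median ratios (1.05) and without CAP replicate 3 (1.08). Of the 31-base stretches of Dsg1a transcripts, 41.4% also occur in another gene, mostly in Dsg1b (38.0%), so reads of the copies may have been divided between them. With Dsg1a, Dsg1b and Dsg1c summed, the difference was 0.82.

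Among the armadillo proteins, Jup lay at 868, 1088 and 805 TPM in sham libraries and at 1618, 1795 and 1167 TPM in CAP libraries, a difference of 0.72 ± 0.21 (SE, adjusted p = 0.211 in limma). Pkp1, whose protein enlarges the plaque of upper-layer desmosomes, lay at 611, 744 and 515 TPM in sham libraries and at 1017, 1137 and 769 TPM in CAP libraries, a difference of 0.64 ± 0.20 (SE, adjusted p = 0.217 in limma). Both genes were separated between the groups, and CAP replicate 3 was the lowest CAP library for each. Pkp3, which is found in desmosomes of all epidermal layers, lay at 290, 339 and 227 TPM in sham libraries and at 457, 529 and 321 TPM in CAP libraries, so that CAP replicate 3 lay below sham replicate 2. Its difference was 0.60 ± 0.22 (SE, adjusted p = 0.235 in limma).

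Dsp lay at 751, 742 and 568 TPM in sham libraries and at 1072, 1015 and 762 TPM in CAP libraries. The groups did not overlap, although CAP replicate 3 exceeded sham replicate 1 by little. The difference was 0.46 ± 0.18 (SE, adjusted p = 0.245 in limma). In all, 5 of the 10 genes had CAP libraries wholly above the sham libraries (Dsg1a, Dsc1, Pkp1, Dsp and Jup), against 8.01% of all genes, and 0 had them wholly below, against 18.0%. The smallest p that an exact permutation test can give for 3 against 3 libraries is 0.1, and each of these 5 genes had it.

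The other 4 cadherin genes had an unadjusted p above 0.05 in limma. Dsc3 lay at 272 to 386 TPM in sham libraries and at 346 to 521 TPM in CAP libraries, a difference of 0.36 (95% interval -0.11 to 0.83, unadjusted p = 0.116 in limma). Dsg3, the desmoglein of the lower layers, lay at 93.4, 96.5 and 80.8 TPM in sham libraries and at 111, 67.7 and 58.7 TPM in CAP libraries. CAP replicate 1 was above all sham libraries and the other CAP libraries were below them, and the difference was -0.24 (95% interval -0.79 to 0.32). It was -0.51 without CAP replicate 1, with an unadjusted p of 0.0101 in limma, and -0.05 without CAP replicate 3. Dsc2 lay at 52.2, 45.1 and 64.9 TPM in sham libraries and at 62.3, 15.3 and 35.3 TPM in CAP libraries, a difference of -0.73 with an interval of -1.83 to 0.38. Without CAP replicate 1 it was -1.20 and past the threshold. Dsg2 lay at 6.45 to 13.6 TPM in sham libraries and at 8.48 to 9.15 TPM in CAP libraries, a difference of -0.08 that turned positive under median-ratio scaling (0.03) and quantile normalization (0.09).

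The count of 6 higher genes at an unadjusted p under 0.05 rested on the libraries. Leaving out sham replicate 1, 2 or 3 gave 4, 5 and 3 genes, all of them higher. Over all genes tested, the number at that p in either direction was then 1925, 2718 and 2122 in place of 3517. Leaving out CAP replicate 2 gave 4 higher genes (2294 of all genes), and leaving out CAP replicate 3 gave 7 (5262 of all genes). Leaving out CAP replicate 1 gave 4 higher genes and 2 lower ones, Dsg3 and Dsc2 (2389 of all genes). Pkp1 lost its unadjusted p under 0.05 without sham replicate 3 (0.0584 in limma). Pkp3 lost it without sham replicate 1 or 3 or CAP replicate 1 or 2. Dsp lost it without any one of the sham replicates or without CAP replicate 1 or 2. Without CAP replicate 3, 4 of the genes (Dsg1a, Dsc1, Pkp1 and Jup) also had an adjusted p under 0.05, the smallest 0.0307 in limma, together with 519 higher and 911 lower genes of all tested. The smallest adjusted p among the 10 genes ranged from 0.0307 to 0.47 over the alternatives.

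**Figure D2:**
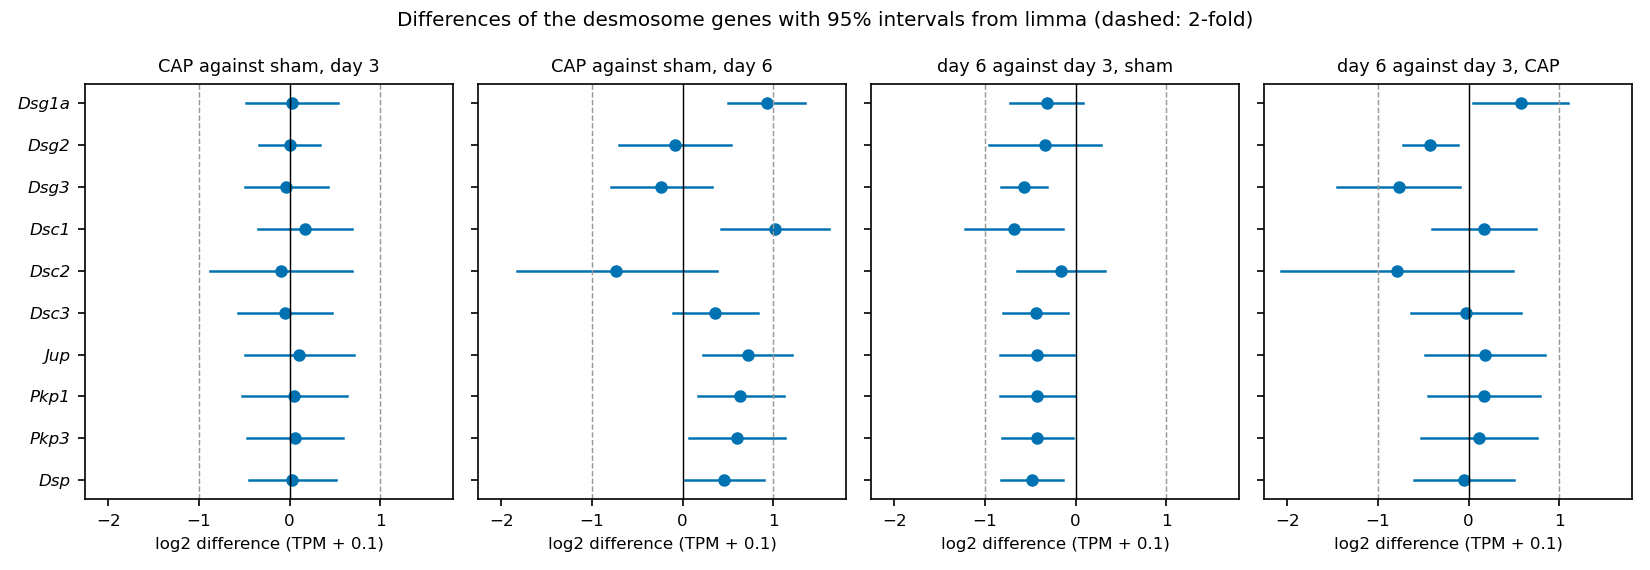
Log2 differences of the 10 desmosome genes (x axis, log2 of TPM + 0.1) in the 4 comparisons, with points for the estimates and lines for the 95% intervals from limma; dashed lines mark 2-fold. In the day 6 comparison the interval of Dsg1a ran from 0.50 to 1.35 and that of Dsc2 from -1.83 to 0.38, and at day 3 the estimates stayed between -0.09 and 0.17.

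Summed markers of other cell types were set side by side in the same libraries at day 6. The 5 endothelial markers (Pecam1, Cdh5, Kdr, Tie1 and Vwf) summed to 220 to 292 TPM in sham libraries and 62.2 to 183 TPM in CAP libraries, with no overlap. Of all single genes tested, 18.0% lay wholly lower with CAP at that day. The 6 myeloid markers summed to 1484 to 1759 against 736 to 1591 TPM, the 6 fibroblast markers to 19608 to 26189 against 15743 to 21522 TPM, the 5 neutrophil markers to 156 to 238 against 46.9 to 224 TPM and the 5 muscle markers to 1912 to 2922 against 1446 to 2084 TPM, all overlapping. The 8 hair follicle markers summed to 15.9 to 98.3 TPM in sham libraries and 4.17 to 10.4 TPM in CAP libraries, and the 4 adipocyte markers to 39.0 to 102 against 93.6 to 176 TPM. The keratinocyte reference genes summed to 13370 to 16254 against 14688 to 26245 TPM, with Krt14 alone at means of 8010 and 11021 TPM. CAP replicate 2 had the lowest endothelial and myeloid sums of the group, as well as the lowest Dsc2 level. The part of tissue composition in the differences of the desmosome genes was not tested.

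At day 3, no desmosome gene differed between CAP-treated and sham wounds beyond the spread between libraries. The differences lay between -0.09 for Dsc2 and 0.17 for Dsc1 on the log2 scale, and the ranges of the 2 groups overlapped for all 10 genes. Dsc1 lay at 300, 471 and 353 TPM in sham libraries and at 485, 453 and 320 TPM in CAP libraries, and Dsg1a at 282, 433 and 354 against 445, 362 and 284 TPM. For Dsg1a the 95% interval of the difference was -0.48 to 0.53, and for Jup it was -0.49 to 0.71, so that differences of moderate size in either direction were not detectable with these libraries. Of the 10 genes, 0 had an unadjusted p under 0.05 in limma, against 1.46% of all genes that were higher and 5.14% that were lower, and 0 passed the 2-fold threshold, against 0.426% and 1.16%. The groups of 0 genes did not overlap, against 2.86% higher and 8.75% lower. None had an adjusted p under 0.05, against 0.0164% of all genes, which were higher. The smallest adjusted p was 0.963 in limma, and it ranged from 0.669 to 1.0 over the alternatives. CAP replicate 3 had the highest myeloid sum of the group, 2543 TPM against 1261 and 1544 TPM, and the lowest sum of the desmosome genes, 3593 TPM. Without that library all 10 differences were positive, and without CAP replicate 1 only 1 of the 10, Dsc1 (0.05), stayed positive.

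In sham wounds, levels were lower at day 6 than at day 3 for all 10 genes. The limma fit gave 7 of the 10 an unadjusted p under 0.05 with a lower level, against 7.91% of all genes tested, and 0 with a higher level, against 8.05%. None reached a 2-fold difference, against 1.61% of all genes past the threshold and lower and 2.13% past it and higher, and none had an adjusted p under 0.05, against 1.14% of all genes in each direction. The ranges of 3 genes (Dsg3, Dsc3 and Dsp) lay wholly lower at day 6, against 10.6% of all genes, and those of 0 wholly higher, against 10.8%.

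Dsg3 lay at 144, 138 and 119 TPM in the sham libraries of day 3 and at 93.4, 96.5 and 80.8 TPM in those of day 6. The groups were well apart, and the difference of -0.57 ± 0.11 (SE, 0.675-fold) had an adjusted p of 0.0506 in limma. This p ranged from 0.043 to 0.365 over the alternatives that kept the libraries unpaired, crossing 0.05 under median-ratio scaling (0.043), under quantile normalization (0.0462) and with 1 TPM as the pseudocount (0.0471). Dsp lay at 865, 1066 and 930 TPM at day 3 and at 751, 742 and 568 TPM at day 6, a difference of -0.48 ± 0.15 (SE, adjusted p = 0.165 in limma). Dsc3 lay at 428, 514 and 437 against 369, 386 and 272 TPM, a difference of -0.44 ± 0.15 (SE, adjusted p = 0.221 in limma). Dsc1 had the largest difference, -0.68 ± 0.23 (SE, adjusted p = 0.206 in limma), although sham replicate 2 of day 6 (312 TPM) overlapped sham replicate 1 of day 3 (300 TPM). Pkp1, Pkp3 and Jup differed by -0.42, -0.42 and -0.43. Dsg1a (-0.32), Dsg2 (-0.34) and Dsc2 (-0.16) had an unadjusted p above 0.05 in limma, with 95% intervals reaching 0.08, 0.28 and 0.33.

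The count of 7 genes was 2 without replicate 2 of day 3 or without replicate 3 of day 6, 4 without replicate 3 of day 3 or replicate 1 of day 6, and 3 when all 12 libraries shared an estimate of the spread. Over all genes, the number at an unadjusted p under 0.05 was 2306, 2206, 2184, 2547 and 2199 in the same order, in place of 2930. In the same sham libraries the wound-induced keratins Krt6a and Krt6b were lower at day 6 by 1.23 and 1.41 on the log2 scale (adjusted p = 0.0327 and 0.0242 in limma). The keratinocyte reference genes summed to 22245 to 28020 TPM at day 3 and to 13370 to 16254 TPM at day 6. Krt14 made up much of this sum, with means of 15910 and 8010 TPM. The mean log2 level of the 7 genes differed by -0.39. Single genes differed by -0.99 (Krt14) to 0.02 (Epcam), and 6 of the 7 differences were negative. The endothelial markers summed to 79.5 to 110 against 220 to 292 TPM. The part of these changes in the lower desmosome levels was not tested.

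In CAP-treated wounds the genes did not move together between the days. Dsg1a was higher at day 6, at 538, 656 and 429 TPM against 445, 362 and 284 TPM at day 3, and CAP replicate 3 of day 6 lay below CAP replicate 1 of day 3. Its difference was 0.58 ± 0.22 (SE, adjusted p = 0.399 in limma). Dsg3 lay at 144, 158 and 96.7 TPM at day 3 and at 111, 67.7 and 58.7 TPM at day 6, a difference of -0.77 ± 0.28 (SE, adjusted p = 0.386 in limma). Dsg2 lay at 13.0, 11.8 and 10.7 TPM at day 3 and at 8.48, 9.15 and 8.81 TPM at day 6, without overlap, a difference of -0.42 ± 0.13 (SE, adjusted p = 0.345 in limma). Thus 1 of the 10 genes was higher at an unadjusted p under 0.05, against 5.66% of all genes, and 2 were lower, against 5.91%. Past the 2-fold threshold were 0 in either direction, against 1.27% higher and 1.52% lower, and 1 gene lay wholly lower, against 9.63%, and 0 wholly higher, against 8.05%. None had an adjusted p under 0.05, against 0.00549% of all genes, which were lower. Dsg1a lost its unadjusted p under 0.05 when replicate 2 or 3 of day 3 or replicate 1 or 2 of day 6 was left out, and when its copies were summed. Dsg3 lost it without replicate 1 or 2 of day 3 and without replicate 2 or 3 of day 6, and Dsg2 without replicate 1 of either day. Without CAP replicate 1 of day 6, Dsg3 (-1.04) and Dsc2 (-1.26) passed the threshold.

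The remaining genes differed little between the days with CAP, with wide intervals. Jup differed by 0.18, Dsc1 and Pkp1 by 0.17, Pkp3 by 0.12, Dsc3 by -0.03 and Dsp by -0.05, with a 95% interval for Jup of -0.48 to 0.84. Dsc3 and Dsp changed sign under another scaling (0.01 under median ratios for Dsc3 and 0.02 under quantile normalization for Dsp). Dsc2 differed by -0.79 with an interval of -2.07 to 0.49.

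The difference between the CAP effects of day 6 and day 3 was tested directly, as the interaction of treatment and day in a fit of 20267 genes. Dsg1a (0.90 ± 0.30, SE, adjusted p = 0.428 in limma) and Dsc1 (0.85 ± 0.36, SE, adjusted p = 0.431 in limma) had an unadjusted p under 0.05, so 2 of the 10 were higher, against 5.43% of all genes, and 0 were lower, against 5.88%. Past the 2-fold threshold were 0 genes, against 2.18% higher and 2.73% lower. Dsg1a kept an unadjusted p under 0.05 with each of the 12 libraries left out in turn. Dsc1 lost it without replicate 2 or 3 of the sham group at day 3, replicate 3 of the CAP group at day 3, replicate 1 or 3 of the sham group at day 6, or replicate 1 or 2 of the CAP group at day 6. Without replicate 3 of that last group 5 of the 10 genes had it, and all genes at that p rose from 2292 to 4062. With all 12 libraries, the 8 genes other than Dsg1a and Dsc1 lay between -0.63 for Dsc2 and 0.61 for Jup. Every comparison shares libraries with others, and the low sham libraries of day 6 enter both the CAP comparison of that day and the sham comparison of the days.

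Because TPM is scaled by length, the share of each paralogue within its family could be read in every library. Dsg1a took 64.6 to 74.1% of the summed Dsg1a, Dsg2 and Dsg3 in sham wounds at day 3, 68.1 to 73.9% in CAP-treated wounds at day 3 and 73.4 to 74.5% in sham wounds at day 6. In the CAP libraries of day 6 it took 81.8, 89.5 and 86.4%. Those 3 libraries stood above all other 9, and their Dsg3 shares of 16.9, 9.23 and 11.8% stood below the 23.2 to 33.1% of the others. The ratio of Dsg1a to Dsg3 was 3.01 to 3.20 in sham libraries of day 6 and 4.82, 9.70 and 7.32 in CAP libraries of that day. With Dsg1b and Dsg1c included in the sum, Dsg1a took 50.0 to 53.1% in sham libraries and 56.1 to 65.9% in CAP libraries of day 6.

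Among the desmocollins, Dsc1 took 32.5 to 42.0% of the summed desmocollins in sham libraries and 47.4 to 53.7% in CAP libraries of day 6, without overlap, and 43.9 to 47.7% in CAP libraries of day 3. Dsc3 took 51.4 to 59.1% in sham libraries and 44.8 to 47.8% in CAP libraries of day 6, and Dsc2 6.07 to 12.3% against 1.51 to 5.52%. The ratio of Dsc1 to Dsc2 was 3.88, 6.91 and 2.96 in sham libraries and 8.76, 35.5 and 9.72 in CAP libraries of day 6. The plakophilins kept their proportion, with Pkp1 at 67.6 to 70.6% of Pkp1 and Pkp3 in all 12 libraries. Desmoplakin relative to plakoglobin was 0.682 to 0.865 in sham libraries and 0.566 to 0.662 in CAP libraries of day 6. Each of these separations between 3 and 3 libraries has an exact permutation p no smaller than 0.1.

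**Figure D3:**
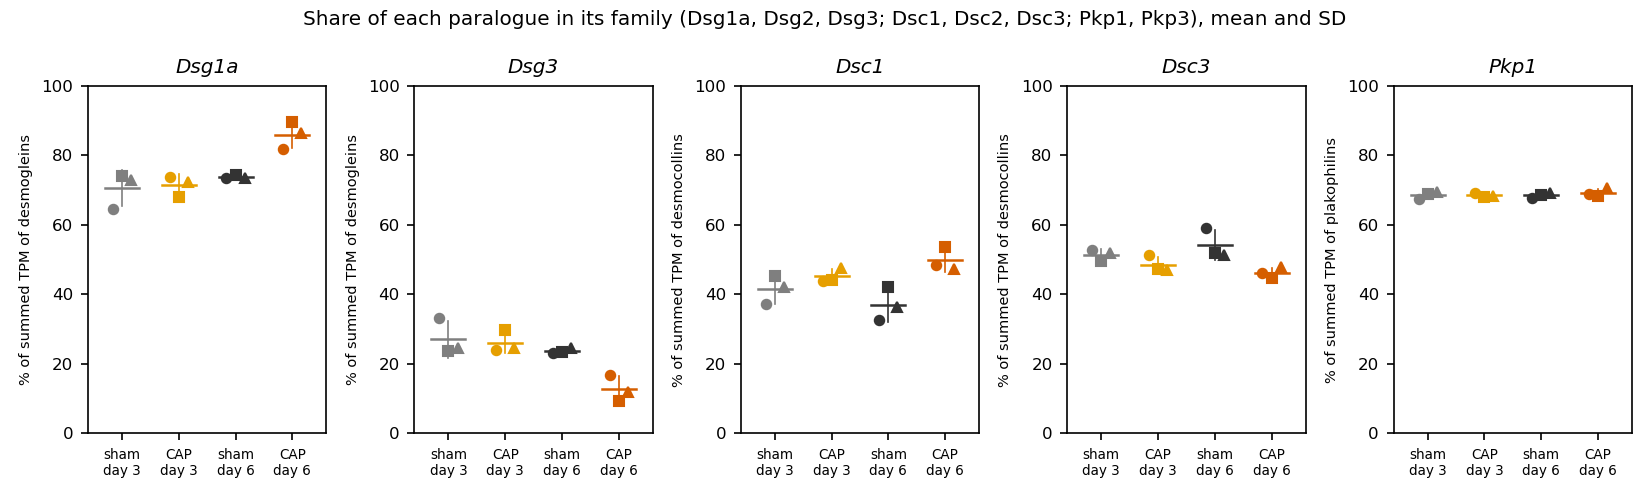
Share of Dsg1a and Dsg3 in the desmogleins, of Dsc1 and Dsc3 in the desmocollins and of Pkp1 in the plakophilins (y axis, % of the summed TPM of the family) in each library, with the mean and SD (n = 3). The CAP libraries of day 6 lay at 81.8 to 89.5% for Dsg1a and at 9.23 to 16.9% for Dsg3, apart from all others, and Pkp1 stayed between 67.6 and 70.6%.

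The 7 keratinocyte reference genes were chosen as markers of epidermal cells of every layer or of the basal layer. They did not move as 1: at day 6 with CAP their single differences ran from -0.08 (Itgb4) to 0.67 (Epcam). A level relative to other keratinocyte transcripts was computed as the log2(TPM + 0.1) of the gene minus the mean of these 7 genes. That mean was itself 0.37 higher in CAP than in sham libraries of day 6, with overlapping ranges (exact permutation p = 0.3). Relative to it, Dsg1a was higher by 0.56 and Dsc1 by 0.65, with relative levels of -1.01, -1.01 and -0.94 in sham libraries and -0.59, -0.26 and -0.44 in CAP libraries for Dsg1a. Dsg3 differed by -0.61, with -2.67, -2.69 and -2.53 in sham libraries and -2.86, -3.54 and -3.31 in CAP libraries. None of these 3 genes overlapped between the groups on this scale, although Dsg3 had overlapped in TPM. Jup (0.35), Pkp1 (0.27), Pkp3 (0.23) and Dsp (0.09) were also wholly higher, each by less than in TPM, and Dsc3 differed by -0.01. Dsg2 (-0.45) and Dsc2 (-1.10) overlapped. On this scale 6 of the 10 genes were thus wholly higher, against 2.43% of all genes tested, and 1 was wholly lower, against 26.9%. In TPM these shares of all genes were 8.01% and 18.0%, with 5 and 0 of the 10 genes, so the subtraction itself moved the shares. Each non-overlapping difference has the smallest exact permutation p possible, 0.1. The part of the balance between epidermal layers in these relative differences was not tested.

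On the same relative scale, the sham differences between the days were small: the reference itself differed by -0.39 between the days, and the 10 genes by -0.29 for Dsc1 to 0.24 for Dsc2, of which only Dsp (-0.09) did not overlap, so that 1 gene was wholly lower, against 1.62% of all genes, and 0 were higher, against 36.6%. In TPM these shares of all genes were 10.6% and 10.8%, so the subtraction moved them here as well. In CAP-treated wounds Dsg1a was 0.55 higher at day 6 than at day 3, Jup 0.15 and Pkp1 0.14, all without overlap, so 3 genes were wholly higher, against 4.33% of all genes. Dsg3 differed by -0.80 there and was the 1 gene wholly lower, against 2.87%. At day 3, Jup (0.17), Pkp3 (0.12) and Pkp1 (0.11) were slightly higher with CAP, without overlap between the groups, and these 3 stand against 1.27% of all genes, with 0 lower against 2.18%.

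**Figure D4:**
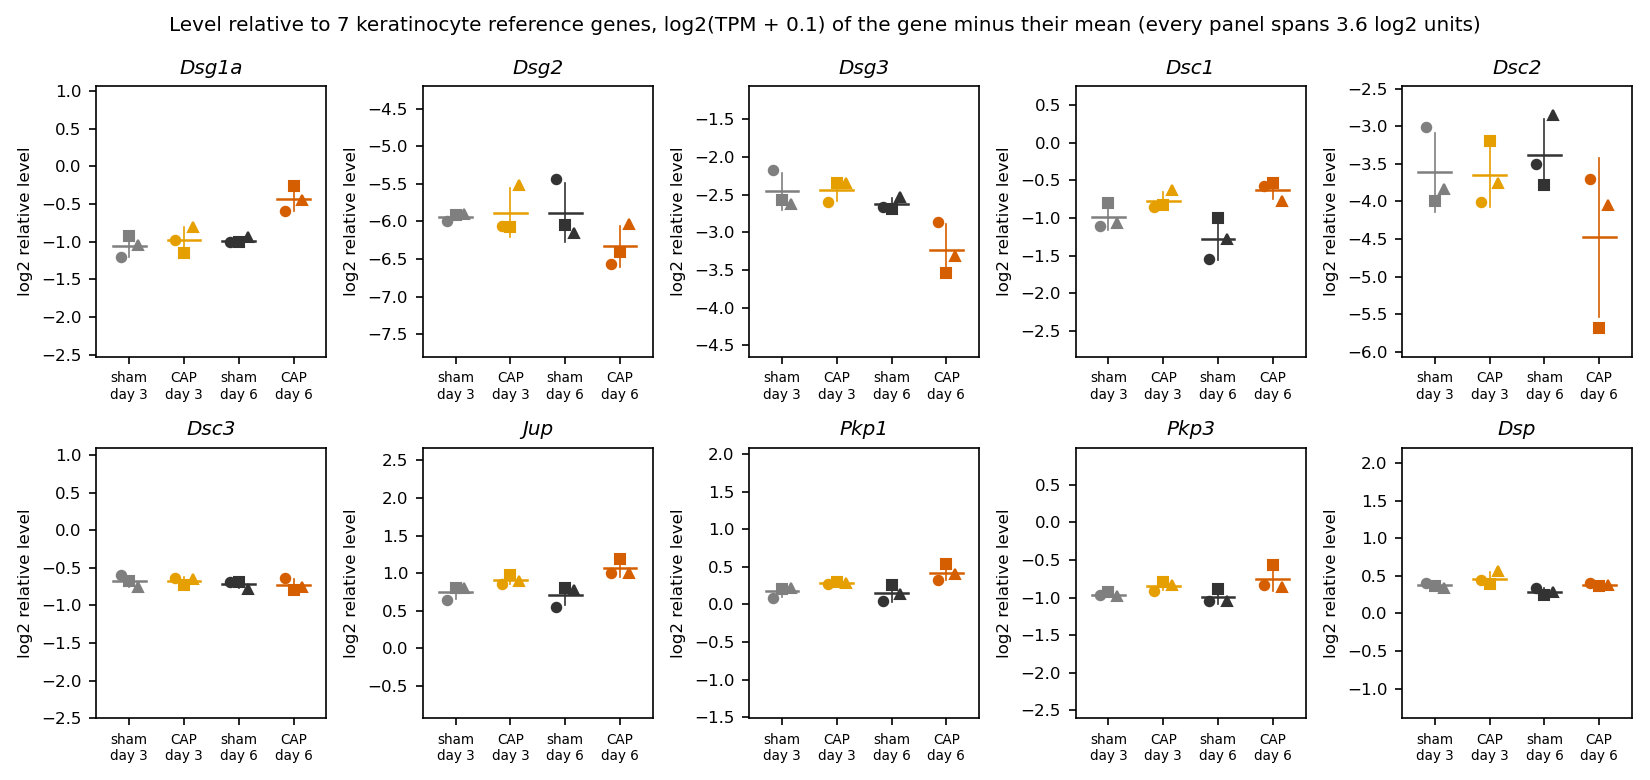
Level of each desmosome gene relative to the mean of 7 keratinocyte reference genes (y axis, log2; every panel spans the same number of log2 units) in each library, with the mean and SD (n = 3). Dsg1a lay at -0.59 to -0.26 in the CAP libraries of day 6 and at -1.01 to -0.94 in the sham libraries, Dsg3 lay lower in those CAP libraries, and Dsc3 stayed near the same value in all groups.

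Genes of related structures were taken from lists of known junction and epidermal genes. Among 10 further desmosome genes, 9 passed the filter (Dsg4 did not), and at day 6 with CAP 6 of the 9 were higher at an unadjusted p under 0.05 and 0 were lower, against 6.67% and 12.5% of all genes tested. Cdsn, the corneodesmosin of the outermost junctions, lay at 443, 716 and 442 TPM in sham libraries and at 1039, 1394 and 802 TPM in CAP libraries, a difference of 1.02 (adjusted p = 0.208 in limma) that passed the threshold. Ppl, the periplakin that links desmosomes to the cornified envelope, was higher by 0.70 (adjusted p = 0.206 in limma), from a mean of 230.0 to 371 TPM. Evpl (envoplakin), Perp, Dsg1b and Kazn were higher by 0.72, 0.71, 0.64 and 0.59. In sham wounds, 2 of these 9 genes, Dsg1b (-0.62) and Perp (-0.52), were lower at day 6 than at day 3 at that p, against 7.91% of all genes.

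Of 9 tight junction genes, 5 were higher at day 6 with CAP at an unadjusted p under 0.05 and none was lower, against the same 6.67% and 12.5%, with Tjp3 at 0.89 and Cgn (cingulin) at 0.69. Of 8 adherens junction genes 2 were higher, Nectin4 (0.52) and Cdh1 (0.46, E-cadherin), and none was lower. Of 9 hemidesmosome genes, which anchor basal keratinocytes to the basement membrane, 1 was higher (Dst) and 1 was lower (Cd151, -0.29), counts near those shares of all genes, and their median difference was -0.19. Of these 3 lists none of the genes passed the 2-fold threshold. Of 10 keratins, partners of desmoplakin as a class, 3 passed it and were higher, against 1.46% of all genes, and 0 were lower, against 2.34%. The 3 were Krt1 (1.86), Krt10 (1.62) and Krt15 (1.21). In this list 7 differences were positive and 3 negative, the lowest that of Krt17 (-0.39). Krt1 and Krt10 are keratins of the upper layers, and Krt15 is a basal keratin. Of 8 epidermal transcription factors 5 were higher at an unadjusted p under 0.05, again against 6.67% of all genes, among them Zfp750 (0.67) and Klf4 (0.89), and all 8 had a positive difference.

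Across the 12 libraries, which share the normalization to a fixed total, the mRNAs of the inner proteins varied together, and that of the cadherin Dsc3 with them. Pearson's r of the log2 levels was 0.992 between Pkp1 and Jup, 0.988 between Pkp1 and Pkp3 and 0.974 between Dsc3 and Dsp. Each r pools the 4 groups, so differences between the groups enter it. Dsc2 stood apart, with an r of -0.0745 to the mean of the other members, and Dsg1a and Dsg3 had an r of -0.137 to each other. With the mean of the keratinocyte reference genes, r was 0.98 for Dsc3 and 0.97 for Dsp, and 0.735 for Dsg1a, 0.524 for Dsg3, 0.49 for Dsg2 and 0.0196 for Dsc2. With the mean of Krt1 and Krt10, r was 0.889 for Dsg1a and -0.513 for Dsg3. With the wound-induced keratins Krt6a, Krt6b and Krt16, it was 0.94 for Dsg3 and 0.0836 for Dsg1a. At day 6, Krt1 and Krt10 had means of 19616 and 25778 TPM with CAP and of 5150 and 7748 TPM in sham wounds. The CAP group of day 6 also had the highest mean of Dsg1a and the lowest of Dsg3, so these r partly restate that comparison.

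Among the 10 genes most like the mean of the 10 desmosome genes, out of 16159 with a mean of at least 1 TPM, were Hook1 (r = 0.977), Gm49601 (0.971), Ripk4 (0.966), Cast (0.961), Gsdmc (0.958), Tyro3 (0.958), Slc25a48 (0.955), Atp6v0a4 (0.952) and Cdh1 (0.951), over 12 libraries. These correlations are descriptions.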

How the data were processed

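Total RNA from cutaneous wounds was made into paired-end libraries (Agilent SureSelect XT HS2 mRNA kit). Per the submitters' processing notes, bcl2fastq, Trimmomatic 0.36 and the mouse build mm10 were used, and per the study's methods StringTie. The sources used here do not give the aligner, the annotation release or whether counting used strand. The authors deposited a table per library with TPM values, in which genes without reads hold a placeholder of 0.0001, and the tables sum to 1000003.08 to 1000003.23.

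From these, log2(TPM + 0.1) was fitted with limma 3.58.1 (trend, not robust, R 4.3.3) over all genes whose mean reached 0.3 TPM in each group compared (for the interaction, in 1 or more of the 4 groups), two-sided, with Benjamini-Hochberg adjustment over all genes tested. The threshold of an unadjusted p under 0.05 and 2-fold follows the filter and thresholds of the study's methods. Intervals are 95% intervals from limma. Exact two-sided permutation tests used the 20 divisions of 6 libraries. Fold changes on this scale slightly understate those of low genes. The fit was tested on simulated data.

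Groups followed the labels, and all 12 libraries were used. The 10 genes, the lists of other genes and the tests were chosen with earlier results of these data known, so none of them is independent support. All 10 genes were named in every comparison, the 2 genes of smallest p were named for each other list where a sentence needed them, and further genes of those lists were named after their values were seen. Likeness was Pearson's r to the mean log2 level of the 10 genes. One of the 10 genes of highest likeness is not reported here. GENCODE M21 held 55141 of the identifiers, and coordinates are those of that release (GRCm38). Repeat stretches of 31 bases were counted in its transcripts. Dsg2 overlaps the antisense gene Gm16090, Dsp the gene Gm10129 on the other strand and Pkp1 the gene Gm36938 on the same strand, so reads of these pairs may not be told apart. Alternatives were a pseudocount of 1 TPM, a value above the placeholder in every library compared in place of the filter on means, a joint fit of 12 libraries, the replicate number as a block, median-ratio scaling, quantile normalization, each library left out, and Dsg1a, Dsg1b and Dsg1c summed.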

Additional observations from a re-analysis of the deposited data

Results flagged for a closer look

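The CAP effect of Dsg1a was larger at day 6 than at day 3 by 0.90 on the log2 scale (unadjusted p = 0.0118 and adjusted p = 0.428 for the interaction term in limma), with an effect of 0.03 at day 3 and of 0.93 at day 6. In the range of single libraries left out, this difference was 0.73 to 1.06. All 3 CAP libraries exceeded all 3 sham libraries at day 6, and the groups overlapped at day 3.

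The CAP effect of Dsc1 differed between the days by 0.85 (unadjusted p = 0.0386 and adjusted p = 0.431 for the interaction term in limma), with an effect of 0.17 at day 3 and of 1.02 at day 6, and it ranged from 0.67 to 1.07 with single libraries left out. From day 3 to day 6, Dsc1 differed by -0.68 in sham wounds and by 0.17 in CAP-treated wounds. The interactions of Dsg1a and Dsc1 both failed the correction over all genes tested, and what lies behind them was not tested.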

How the results depend on the processing

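The 3 libraries per group and the unknown depth limit these results, no desmosome gene had an adjusted p under 0.05 without a change of setting, and single libraries decided several counts. Of 655 values under the alternatives, 592 kept their direction and side of the threshold, 48 changed sign, 11 came to pass the threshold and 4 no longer did, and the cause was not tested. The number of desmosome genes past the threshold was 0 at day 3 and between the sham days under every alternative tried. At day 6 with CAP it was 2 with median-ratio scaling, which centres the median of all genes at 0.00 and turns the split of 268 higher and 429 lower genes into 403 and 285, and 0 to 2 with single libraries left out. Between the CAP days and for the interaction it was 0 to 2 with single libraries left out.

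Changes of sign were in small differences. At day 3, Dsg2, Dsg3 and Dsc3 were 0.06, 0.02 and 0.01 with median-ratio scaling, and Dsg2 and Dsp 0.07 and -0.02 with quantile normalization. With single libraries left out at day 3, Dsg1a ranged from -0.13 to 0.19, Dsg2 from -0.11 to 0.09, Dsg3 from -0.17 to 0.18, Dsc2 from -0.42 to 0.21, Dsc3 from -0.23 to 0.20, Pkp1 from -0.10 to 0.31, Pkp3 from -0.06 to 0.31, Dsp from -0.11 to 0.24 and Jup from -0.03 to 0.37. At day 6, Dsg2 was 0.03 with median-ratio scaling and 0.09 with quantile normalization, and -0.35 to 0.18 with libraries left out. Between the sham days Dsc2 ranged from -0.30 to 0.06. Between the CAP days Dsc3 was 0.01 with median-ratio scaling and Dsp 0.02 with quantile normalization, and left-out ranges were -0.01 to 0.40 for Dsc1, -0.28 to 0.15 for Dsc3, -0.09 to 0.33 for Pkp1, -0.13 to 0.32 for Pkp3, -0.25 to 0.10 for Dsp and -0.08 to 0.36 for Jup. In the interaction Dsg2 was 0.02 with quantile normalization and -0.35 to 0.18 with libraries left out.

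The labels number the replicates alike in every group, but the deviations of same-numbered libraries correlated at only -0.108 to 0.222, so the numbers were not taken to pair the samples. With the replicate number as a block, 1 desmosome gene passed the threshold at day 6 with CAP and 0 in the other comparisons, as without it. The desmosome genes at an unadjusted p under 0.05 were then 7 in place of 6 at day 6, and all genes at that p 4146 in place of 3517. For the interaction they were 5 in place of 2, and all genes 3062 in place of 2292. Between the sham days Dsg3 and Dsc1 had an adjusted p under 0.05 (0.0369 and 0.0441 in limma). Over all genes tested, 199 higher and 164 lower genes had it there.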
